A study of Homo sapiens with 6 samples.

Results

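CEACAM1, CEACAM5, CEACAM6 and CEACAM7, 4 members of the carcinoembryonic antigen family of cell adhesion molecules, were followed in HT-29 cells given the Akkermansia muciniphila protein Amuc_0904. They are 4 of the 63241 genes in the expression table and 4 of the 14333 genes that had at least 1 TPM in at least 3 libraries and could be tested. The rows were found by gene symbol, with 1 identifier for each, and the genes had been chosen by their TPM values in this same comparison. Their levels and fold changes are therefore a description. How many of them were past the threshold of the fit across all genes is given once, as a count beside the share over all genes, and no member has a p of its own. TPM is a share of a library's transcripts corrected for transcript length, so levels can be set against each other between genes.

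HT-29 is a wild-type human line from a colorectal adenocarcinoma, which the labels list as colon and as enterocytes. Treated cells, called Amuc_0904, received 0.5 μM of the recombinant outer membrane protein, which was made in Escherichia coli with His and FLAG tags, for 72 h. Control cells received buffer for the same time. There are 3 RNA-seq libraries in each group, all of 1 line, and nothing in the labels or methods says that the libraries of a group came from separate cultures. Any p-value given covers the variation from library to library and no more. No read counts accompany the TPM, so the depth of each library and the counting error of each value are unknown.

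CEACAM proteins belong to the immunoglobulin superfamily and sit on the apical face of the colon epithelium, where they bind copies of themselves and, in part, of each other. CEACAM1 spans the membrane, and its long cytoplasmic tail carries inhibitory motifs that recruit tyrosine phosphatases when phosphorylated. CEACAM5, the tumor marker known as carcinoembryonic antigen, CEACAM6 and CEACAM7 lack a tail and are held by a glycosylphosphatidylinositol (GPI) anchor. Several of these proteins are docking sites for bacteria, among them neisserial Opa proteins, the Afa/Dr adhesins of E. coli and, for CEACAM6, adherent E. coli with type 1 fimbriae. CEACAM7 marks mature colonocytes at the top of the crypt.

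The 4 genes lie on the long arm of chromosome 19 (GENCODE annotation, GRCh38). CEACAM7 (ENSG00000007306, 41673307 to 41706976, minus strand), CEACAM5 (ENSG00000105388, 41708585 to 41729798, plus strand) and CEACAM6 (ENSG00000086548, 41750977 to 41772208, plus strand) stand next to each other within 98902 bases. CEACAM1 (ENSG00000079385, 42507304 to 42561234, minus strand) begins 735095 bases past the end of CEACAM6. The build behind the deposited values is not known, because the labels name a mouse build for these human identifiers.

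The promoters resemble one another, and they are shown here because neighbors with similar promoters had opposite differences in level. In the RefSeq windows that run across each annotated start, CEACAM5 and CEACAM7 were identical at 84.7% of aligned bases, CEACAM6 and CEACAM7 at 81.5%, and CEACAM5 and CEACAM6 at 78.8%. CEACAM1 matched the other 3 at 72.03% to 77.1%. The stretch just before the start is printed 5′ to 3′ on the strand of the gene (RefSeq, GRCh38.p14), with an aligned block of 6 bases in capitals. It lies at chr19:41708516-41708605 (plus) for CEACAM5, chr19:41755420-41755509 (plus) for CEACAM6, chr19:41688291-41688380 (minus) for CEACAM7 and chr19:42528502-42528591 (minus) for CEACAM1. For CEACAM1, CEACAM6 and CEACAM7 the stretch is inside the GENCODE span given above. For CEACAM5 it crosses the outer end of that span. In all 4 genes the RefSeq start thus lies inside the span and not at its outer end.
CEACAM5: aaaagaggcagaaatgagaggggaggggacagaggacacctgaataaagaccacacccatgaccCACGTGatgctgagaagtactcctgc
CEACAM6: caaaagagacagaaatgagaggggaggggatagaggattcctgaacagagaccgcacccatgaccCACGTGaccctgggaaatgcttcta
CEACAM7: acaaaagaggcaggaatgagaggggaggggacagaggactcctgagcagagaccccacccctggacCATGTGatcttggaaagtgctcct
CEACAM1: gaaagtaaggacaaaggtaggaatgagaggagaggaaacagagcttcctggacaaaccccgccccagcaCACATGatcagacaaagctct
The capitals spell CACGTG, the E-box that USF and MYC proteins are known to bind, in CEACAM5 and CEACAM6, where it begins at positions −46 and −45 from the start. The block reads CATGTG in CEACAM7 and CACATG in CEACAM1, each with 1 difference from CEACAM5. CACGTG, which reads the same on both strands, was absent from the whole window in these last genes and present in 2548 of 35116 RefSeq promoter windows of equal length, or 7.26%. The looser core CANNTG, which contains CACGTG, was present in all 4 and in 68.7% of promoters. The GC box GGGCGG, searched on both strands, was present in CEACAM1 and CEACAM6 and in 45.0% of promoters. CACCC was present in CEACAM5, CEACAM6 and CEACAM7 (59.9% of promoters), TATAAA in CEACAM6 alone of the 4 (11.5%), and the κB consensus in none of the 4 (5.91%). These are matches of letters and say nothing of which factor was bound. Whether they bear on the direction of a member's difference was not tested, and the 4 members were chosen on these same values.

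CEACAM7, the GPI-anchored marker of mature colonocytes, was the member with the lowest level in treated relative to control cells. It had 1.33, 1.94 and 1.87 TPM in Amuc_0904 replicates 1, 2 and 3, against 8.64, 9.16 and 7.28 TPM in Control replicates 1, 2 and 3. Every treated library lay far below every control library. The means were 1.71 ± 0.334 TPM in Amuc_0904 and 8.36 ± 0.971 TPM in Control cells (SD, n = 3 each), a control level 4.88 times the treated one. On the log2(TPM + 1) scale, which understates the change of low genes, the fold change of Amuc_0904 over Control was −1.79 (standard error 0.13), at place 17 from the lowest of the 14333 genes. In each treated library alone the difference from the control mean was −2.0, −1.67 and −1.70, so that replicate 1, nearer to the controls for the other GPI-anchored members, was here the farthest from them. Because these are bulk libraries, fewer cells with the transcript and less transcript per cell cannot be told apart, here and for each gene that follows.

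**Figure D1:**
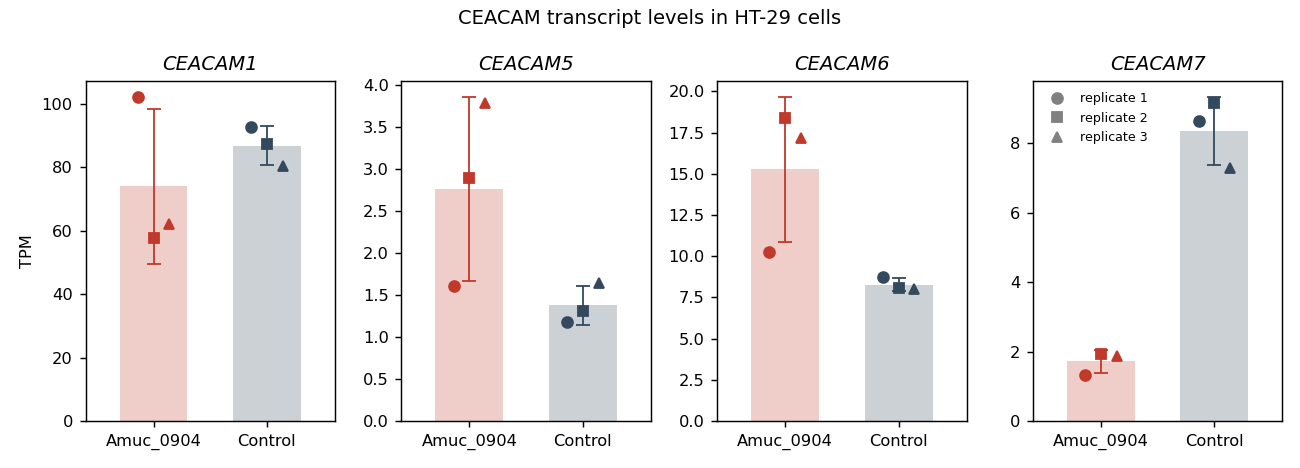
TPM of CEACAM1, CEACAM5, CEACAM6 and CEACAM7 in each library (points, shaped by replicate number), with bars for group means (n = 3) and the SD as a whisker, Amuc_0904 to the left of Control. The axes differ between genes; CEACAM7 lies at 1.33 to 1.94 TPM in treated and 7.28 to 9.16 TPM in control libraries, and CEACAM1 at 57.73 to 102.12 and 80.46 to 92.81 TPM.

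CEACAM6, an adhesion protein often abundant in colorectal tumors, was higher in treated cells. It had 10.26, 18.37 and 17.18 TPM in Amuc_0904 replicates 1 to 3, against 8.72, 8.06 and 8.0 TPM in Control replicates 1 to 3. The groups did not overlap, although Amuc_0904 replicate 1 lay closer to the controls than to the other treated libraries. Means were 15.3 ± 4.38 TPM in Amuc_0904 and 8.26 ± 0.400 TPM in Control cells (SD, n = 3 each), a ratio of 1.85, with a log2 fold change of 0.77 (standard error 0.20). Against the control mean the single treated libraries stood at ratios of 1.24, 2.22 and 2.08.

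CEACAM5, the carcinoembryonic antigen itself, was a low transcript in this line and followed the order of CEACAM6 across libraries only in part. It had 1.61, 2.89 and 3.79 TPM in Amuc_0904 replicates 1 to 3, against 1.18, 1.31 and 1.64 TPM in Control replicates 1 to 3. Here the groups overlapped, since Amuc_0904 replicate 1 lay below Control replicate 3. Means were 2.76 ± 1.10 TPM in Amuc_0904 and 1.38 ± 0.237 TPM in Control cells (SD, n = 3 each), a ratio of 2.01, with a log2 fold change of 0.62 (standard error 0.23). The ratio of each treated library to the control mean was 1.17, 2.10 and 2.75.

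CEACAM1, the member with a signaling tail, was by far the most abundant, and its treated libraries lay on both sides of the controls. Its TPM is for the whole gene, which has 14 transcripts in the GENCODE annotation, and does not tell transcript forms apart. It had 102.12, 57.73 and 62.21 TPM in Amuc_0904 replicates 1 to 3, against 92.81, 87.28 and 80.46 TPM in Control replicates 1 to 3. Amuc_0904 replicate 1 was the highest of all 6 libraries and replicates 2 and 3 the lowest, so the control range lay inside the treated one. Means were 74.0 ± 24.4 TPM in Amuc_0904 and 86.9 ± 6.19 TPM in Control cells (SD, n = 3 each), with a log2 fold change of −0.27 (standard error 0.20). The coefficient of variation was 33.0% in Amuc_0904 and 7.12% in Control cells.

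Of the 4 members, 1, CEACAM7, was past an adjusted p of 0.05 in the limma fit across all genes, where 0.237% of genes were past it, 0.167% lower and 0.0698% higher in Amuc_0904. The groups did not overlap for 2 of the 4, CEACAM7 and CEACAM6, as for 21% of all tested genes, 7.59% lower and 13.4% higher. Because the members were chosen on this comparison, nothing is read from these counts. By size of log2 fold change CEACAM6 stood at place 52 and CEACAM5 at place 108 from the highest, and CEACAM1 at place 1113 from the lowest.

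**Figure D2:**
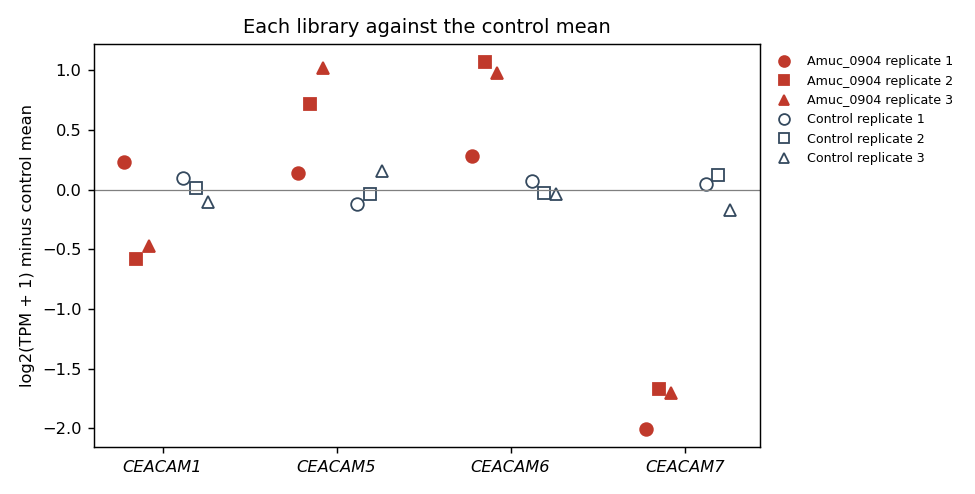
Difference of log2(TPM + 1) from the mean of the controls for each gene (y axis) and library, with filled symbols for Amuc_0904 and open symbols for Control. CEACAM7 lies between −2.0 and −1.67 in the 3 treated libraries, while Amuc_0904 replicate 1 lies at 0.23, 0.14 and 0.28 for CEACAM1, CEACAM5 and CEACAM6, away from replicates 2 and 3.

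Amuc_0904 replicate 1 stood apart from the other treated libraries over all genes, and this touches 3 of the 4 members. Transcripts of the mitochondrial genome took 12.95%, 10.57% and 11.06% of TPM in Amuc_0904 replicates 1 to 3, against 12.84% to 13.50% in the controls. Array weights, which limma estimates from how far a library strays, were 0.224 for this library and 1.26 to 1.49 for the other 5. Without it the log2 fold change was −0.53 for CEACAM1, 0.87 for CEACAM5, 1.02 for CEACAM6 and −1.68 for CEACAM7. Leaving out Amuc_0904 replicate 2 gave −0.12 for CEACAM1, and leaving out Amuc_0904 replicate 3 gave −0.17. Over all genes, 34 were past the adjusted p in the limma fit, against 2640 without Amuc_0904 replicate 1, 17 without Amuc_0904 replicate 2 or 3, 9 without Control replicate 1 or 2 and 10 without Control replicate 3. Why this library differs was not tested.

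Between the members, the order of levels was not the same in the 2 groups. In each Amuc_0904 library CEACAM1 came first, CEACAM6 next, then CEACAM5, and CEACAM7 last. CEACAM7 had 1.33, 1.94 and 1.87 TPM in Amuc_0904 replicates 1 to 3, against 1.61, 2.89 and 3.79 TPM for CEACAM5. Across these libraries the ranges of CEACAM5 and CEACAM7 overlapped, at 1.61 to 3.79 and 1.33 to 1.94 TPM. In Control libraries CEACAM1 came first, CEACAM7 and CEACAM6 shared the next place with overlapping ranges of 7.28 to 9.16 and 8.0 to 8.72 TPM, and CEACAM5 came last. Among the tested genes, the control mean of CEACAM1 stood at percentile 89.5, those of CEACAM7 and CEACAM6 at percentiles 38.4 and 38.1, and that of CEACAM5 at percentile 6.36.

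The make-up of the CEACAM transcripts differed while their total differed less. The 4 members together had 93.8 ± 18.8 TPM in Amuc_0904 and 104.8 ± 7.03 TPM in Control cells (SD, n = 3 each). The 3 GPI-anchored members together had 19.7 ± 5.67 TPM in Amuc_0904 and 18 ± 0.932 TPM in Control cells, and the treated range of 13.2 to 23.2 TPM held the control range of 16.92 to 18.54 TPM. CEACAM7 made up 1.92% ± 0.668 of the summed TPM in Amuc_0904 and 7.96% ± 0.617 in Control cells. CEACAM6 made up 17.3% ± 7.35 in Amuc_0904 and 7.89% ± 0.303 in Control cells, and in replicate 1 alone 8.90%. CEACAM5 made up 3.14% ± 1.57 in Amuc_0904 and 1.33% ± 0.322 in Control cells, and in Amuc_0904 replicate 1 alone 1.40%. CEACAM1 made up 77.7% ± 9.46 in Amuc_0904 and 82.8% ± 0.463 in Control cells, and in Amuc_0904 replicate 1 alone 88.6%.

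**Figure D3:**
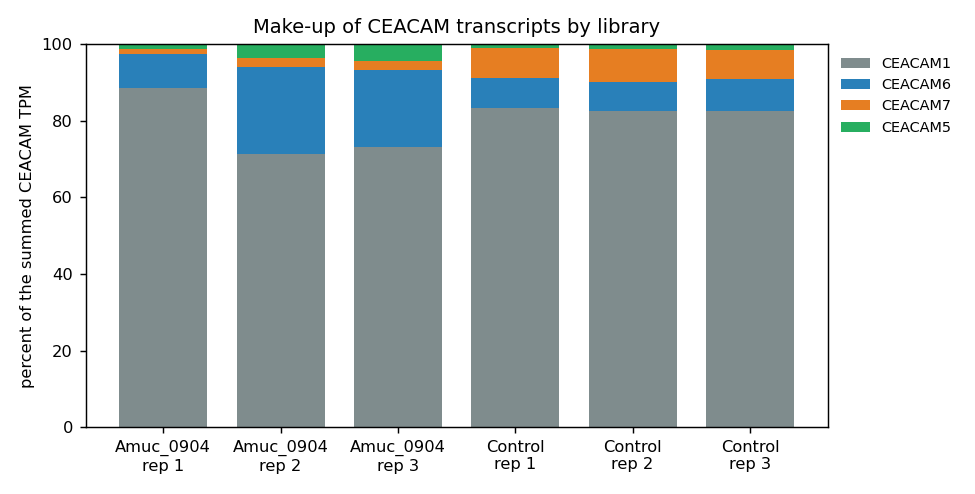
Share of each gene in the summed TPM of CEACAM1, CEACAM5, CEACAM6 and CEACAM7, in percent, 1 stacked bar per library with the Amuc_0904 libraries on the left. The CEACAM7 band covers 1.15% to 2.40% in treated libraries and 7.48% to 8.66% in controls, and the CEACAM6 band is wide in Amuc_0904 replicates 2 and 3 (22.7% and 20.2%).

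Ratios taken within a library do not depend on how that library was scaled. CEACAM6 over CEACAM7 was 7.71, 9.47 and 9.19 in Amuc_0904 replicates 1 to 3, against 1.01, 0.880 and 1.10 in Control replicates 1 to 3. All 3 treated libraries, replicate 1 among them, stood well apart from the controls in this ratio. CEACAM6 over CEACAM5 had a mean of 5.75 ± 1.06 in Amuc_0904 and 6.14 ± 1.26 in Control cells, with treated values of 4.53 to 6.37 and control values of 4.88 to 7.39. The ratio of these 2 genes thus had overlapping ranges in the groups. CEACAM1 over CEACAM6 was 9.95, 3.14 and 3.62 in Amuc_0904 replicates 1 to 3, against 10.6, 10.8 and 10.1 in the controls.

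Across the 6 libraries, as a description with both groups pooled, CEACAM5 and CEACAM6 moved together (Pearson r = 0.925 of log2(TPM + 1)). CEACAM1 moved against both of them (r = −0.870 with CEACAM5 and −0.838 with CEACAM6) and had r = 0.370 with CEACAM7. CEACAM7 had r = −0.698 with CEACAM5 and −0.765 with CEACAM6. Libraries of a group share their treatment, and r over so few points takes in the distance between the groups as well as the spread within them.

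The genes whose pattern was nearest to each member were picked by r among 9808 genes with a mean of at least 5 TPM. A high r says nothing of the size of a difference. Nearest to CEACAM7 were KHNYN, CXCL1 and PI3 (r = 0.997, 0.994 and 0.993), with 36 genes above 0.95. KHNYN differed little, with 28.78, 29.09 and 29.37 TPM in Amuc_0904 libraries, against 32.52, 32.99 and 32.23 TPM in Control libraries (log2 fold change −0.16). The neutrophil chemokine CXCL1 had 1.73, 3.67 and 4.03 TPM in Amuc_0904 libraries, against 45.17, 44.31 and 44.68 TPM in Control libraries. PI3, the protease inhibitor elafin, had 4.04, 7.04 and 7.74 TPM in Amuc_0904 libraries, against 63.12, 67.34 and 68.22 TPM in Control libraries. In each of these genes, as in CEACAM7, Amuc_0904 replicate 1 was the lowest library. Nearest to CEACAM6 were ALDH3A1, an aldehyde dehydrogenase, the translation factor EIF4A1 and the adaptor YWHAQ (r = 0.999, 0.998 and 0.998), with 610 genes above 0.95. ALDH3A1 had 5.57, 9.23 and 8.42 TPM in Amuc_0904 libraries, against 4.91, 4.59 and 4.46 TPM in Control libraries. Nearest to CEACAM5 were PBDC1, the kinetochore protein gene CENPH and the uracil glycosylase gene UNG (r = 0.996, 0.995 and 0.993, with 315 genes above 0.95). Nearest to CEACAM1 were the autophagy regulator AMBRA1, HLA-C, a class I antigen-presenting molecule, and ZNF496 (r = 0.999, 0.997 and 0.997, with 322 genes above 0.95). HLA-C had 612.62, 384.31 and 412.14 TPM in Amuc_0904 libraries, against 566.08, 556.97 and 519.02 TPM in Control libraries, so that replicate 1 was highest here too.

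How well reads can be assigned differs between the members. In the longest coding transcript of each gene, CEACAM7 shared 0% of its windows of 50 bases with any other gene, CEACAM1 4.15%, CEACAM6 7.92% and CEACAM5 19.96%. Over windows of 150 bases the share was 0% in CEACAM1 and CEACAM7, 0.0392% in CEACAM6 and 15.5% in CEACAM5. The CEACAM5 windows of this length were shared only with AC243967.1, an annotated readthrough gene across CEACAM5 and CEACAM6 that was listed at 0 in all 6 libraries. CEACAM5, the lowest of the 4 in the controls, thus had the largest share of sequence that is not its own in the annotation. The antisense gene LIPE-AS1 covers all of CEACAM1 and had 10.46, 9.91 and 8.26 TPM in Amuc_0904 libraries, against 11.36, 6.96 and 8.17 TPM in Control libraries. This overlap is of whole gene spans, introns included, and the exons of the pair were not compared. The sources used here do not say whether counting used the strand. Where exons overlap, reads of this pair may therefore not have been told apart.

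The other CEACAM genes were low or listed at 0. Of 9 genes only CEACAM19, a family member set apart in sequence, could be tested. It had 4.42, 1.84 and 2.44 TPM in Amuc_0904 libraries, against 4.13, 3.38 and 3.12 TPM in Control libraries (log2 fold change −0.27, limma adjusted p = 0.606), which was also the median of the list. None of the tested genes in this list was past the adjusted p or an unadjusted p of 0.05, a count of 0 in both cases. CEACAM18 had 0.37, 1.42 and 0.86 TPM in Amuc_0904 libraries, against 0.88, 0.09 and 1.83 TPM in Control libraries. The granulocyte receptors CEACAM3 and CEACAM8 had at most 0.27 and 0.20 TPM in any library, CEACAM21 at most 0.14 TPM and the pseudogene CEACAM22P at most 0.26 TPM. CEACAM4 was listed at 0 throughout, and CEACAM16 and CEACAM20 had at most 0.05 TPM. The 11 pregnancy-specific glycoprotein genes, the placental branch of the family, were all too low to test, which leaves no calls in either direction.

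The cells had an epithelial profile with little sign of the granulocytes that also carry CEACAM proteins. Of 12 colon epithelial markers 11 reached 1 TPM in some library, with summed levels of 7833 to 8546 TPM in Amuc_0904 and 7905 to 7913 TPM in Control libraries. The labels call the cells enterocytes, and genes known from enterocytes, named here after their values were seen, were uneven. SI and ALPI had at most 0.17 and 0.03 TPM. FABP1 had 116.86 to 148.63 TPM, VIL1 59.02 to 68.27 TPM and DPP4 28.4 to 43.59 TPM across all libraries. CDH17 stayed below 1 TPM, and the intestinal factors CDX1 and CDX2 had at most 1.36 and 1.71 TPM. Of 8 neutrophil markers only ITGAM reached 1 TPM, with sums of 0.87 to 1.53 TPM in Amuc_0904 and 0.98 to 2.09 TPM in Control libraries, and ELANE and S100A12 were listed at 0. Of 8 markers of other leukocytes CD14 and CD68 reached 1 TPM (sums of 10.25 to 15.34 TPM in Amuc_0904 and 13.79 to 18.85 TPM in Control libraries), and CD3E, CD3D and MS4A1 were listed at 0. Most of these sums came from CD68, while CD14, a co-receptor for lipopolysaccharide singled out after its values were seen, had 2.79, 1.89 and 2.85 TPM in Amuc_0904 libraries, against 4.74, 4.76 and 4.65 TPM in Control libraries, with no overlap. Its log2 fold change was −0.72 (limma adjusted p = 0.1496, unadjusted p = 0.000941), and its part in the CEACAM differences was not tested. Of 8 fibroblast and endothelial markers COL1A1 and PECAM1 reached it, with sums of 1.99 to 2.71 TPM in Amuc_0904 and 1.57 to 2.54 TPM in Control libraries.

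CEACAM7 is known from upper-crypt colonocytes, and a list of 40 genes linked to such cells was set beside it. Not all of them are particular to such cells, since KRT8, VIL1 and LGALS4 are also among the colon epithelial markers. Several defining genes of the list were absent, with AQP8, CA1, TMIGD1 and FABP2 listed at 0 and SLC26A3 and MS4A12 at most at 0.06 TPM. Of the 26 tested, 16 had higher and 10 lower means in Amuc_0904, with a median log2 fold change of 0.12 beside 0.0015 over all genes. By limma 0 rose and 0 fell (7 higher and 3 lower at an unadjusted limma p below 0.05, beside 9.95% higher and 5.87% lower of all tested genes). The lowest p values belonged to the cell cycle inhibitor CDKN1A, PHGR1, an abundant intestinal transcript, the selenium-binding protein gene SELENBP1 and the hyaluronan-binding CEMIP. CDKN1A had 5.89, 5.36 and 5.70 TPM in Amuc_0904 libraries, against 9.06, 8.02 and 9.44 TPM in Control libraries (log2 fold change −0.56, limma adjusted p = 0.0993). PHGR1 had 105.87, 153.33 and 149.03 TPM in Amuc_0904 libraries, against 65.87, 73.36 and 83.58 TPM in Control libraries (log2 fold change 0.85, limma adjusted p = 0.136). SELENBP1 and CEMIP had log2 fold changes of −0.62 and 0.49 (limma adjusted p = 0.211 and 0.230). KRT20, a keratin of mature colonocytes singled out after its values were seen, had 127.38, 148.60 and 151.36 TPM in Amuc_0904 libraries, against 123.68, 127.92 and 129.51 TPM in Control libraries (limma adjusted p = 0.337). Without Amuc_0904 replicate 1, 7 genes of the list were past the adjusted p as higher, PHGR1 and KRT20 among them. In the same fit 5 were past it as lower, CDKN1A and SELENBP1 among them. Of all 14077 genes tested in that fit, 1339 were past it as higher and 1301 as lower.

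The partners through which CEACAM1 is known to signal or to reach the cytoskeleton had small differences. Of 17 tested genes of 21, 11 had higher and 6 lower means, and the median log2 fold change was 0.08, and by limma 0 rose and 0 fell (3 higher and 1 lower at an unadjusted limma p below 0.05, beside 9.95% higher and 5.87% lower of all tested genes). The focal adhesion protein gene PXN, the integrin subunit ITGAV and ANXA2, a membrane-binding annexin, had log2 fold changes of 0.21, −0.27 and 0.29 (limma adjusted p = 0.245, 0.258 and 0.278). The phosphatases that dock on the phosphorylated tail, PTPN6 and PTPN11, named here after their values were seen, had 23.6 ± 0.990 and 61.7 ± 3.20 TPM in Amuc_0904 cells. They had 22.1 ± 2.26 and 57.5 ± 0.912 TPM in Control cells (SD, n = 3 each; limma adjusted p = 0.612 and 0.423). Without Amuc_0904 replicate 1, 7 genes were past the adjusted p as higher, among them PXN, ANXA2 and PTPN11, and 1, ITGAV, as lower. Of all 14077 genes tested in that fit, 1339 were past it as higher and 1301 as lower.

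The machinery that builds the anchor of CEACAM5, CEACAM6 and CEACAM7 was close to its control level. Of 31 genes of GPI anchor synthesis and attachment 30 were tested, 11 with higher and 19 with lower means, a median log2 fold change of −0.017, and by limma 0 rose and 0 fell (3 higher and 1 lower at an unadjusted limma p below 0.05, beside 9.95% higher and 5.87% lower of all tested genes). DPM1, which makes the mannose donor of the anchor, and PIGW, which acylates its inositol, had log2 fold changes of 0.14 and 0.25 (limma adjusted p = 0.252 and 0.274). PIGF and PIGG, which work in adding ethanolamine phosphate, had log2 fold changes of 0.20 and −0.23 (limma adjusted p = 0.302 and 0.307). Without Amuc_0904 replicate 1, DPM1 and PIGW were past the adjusted p as higher and PIGZ as lower. Of all 14077 genes tested in that fit, 1339 were past it as higher and 1301 as lower.

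Of 47 other genes for GPI-anchored surface proteins 29 were tested, 8 with higher and 21 with lower means. Their median log2 fold change was −0.06, and by limma 0 rose and 0 fell (1 higher and 7 lower at an unadjusted limma p below 0.05, beside 9.95% higher and 5.87% lower of all tested genes). The ephrin gene EFNA5 and TFPI, an inhibitor of coagulation with a GPI-anchored form, both had a log2 fold change of −0.32 (limma adjusted p = 0.234 and 0.238). The serine protease gene PRSS8 had −0.35 and RAET1L, a ligand of the natural killer receptor NKG2D, 0.76 (limma adjusted p = 0.249 and 0.238). RAET1L had 3.29, 5.27 and 2.44 TPM in Amuc_0904 libraries, against 1.64, 1.47 and 1.93 TPM in Control libraries, with no overlap. Without Amuc_0904 replicate 1, 1 gene of this list, LY6D, was past the adjusted p as higher and 9 as lower. Of all 14077 genes tested in that fit, 1339 were past it as higher and 1301 as lower.

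Among 38 other epithelial adhesion genes 26 were tested, 9 with higher and 17 with lower means, and the median log2 fold change was −0.14. By limma 0 rose and 1 fell (1 higher and 5 lower at an unadjusted limma p below 0.05, beside 9.95% higher and 5.87% lower of all tested genes). The 1 was ICAM1, a ligand of leukocyte integrins, with 4.79, 3.35 and 3.6 TPM in Amuc_0904 libraries, against 9.21, 9.58 and 8.31 TPM in Control libraries (log2 fold change −1.04, standard error 0.13, limma adjusted p = 0.0330). CD47, which restrains phagocytosis, the adenovirus receptor CXADR and NECTIN1 had log2 fold changes of −0.22, −0.29 and 0.15 (limma adjusted p = 0.238, 0.261 and 0.273). EPCAM and CDH1, which hold epithelial cells to each other and were named after their values were seen, had 571.1 ± 43.5 and 81.0 ± 12.3 TPM in Amuc_0904 cells and 594.9 ± 9.36 and 91.1 ± 4.09 TPM in Control cells (SD, n = 3 each). Without Amuc_0904 replicate 1, 9 genes of the list were past the adjusted p, all lower. Of all 14077 genes tested in that fit, 1339 were past it as higher and 1301 as lower. Without any other single library 0 genes of the list were, and ICAM1 passed in 6 of 13 alternatives (adjusted p up to 0.213).

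**Figure D4:**
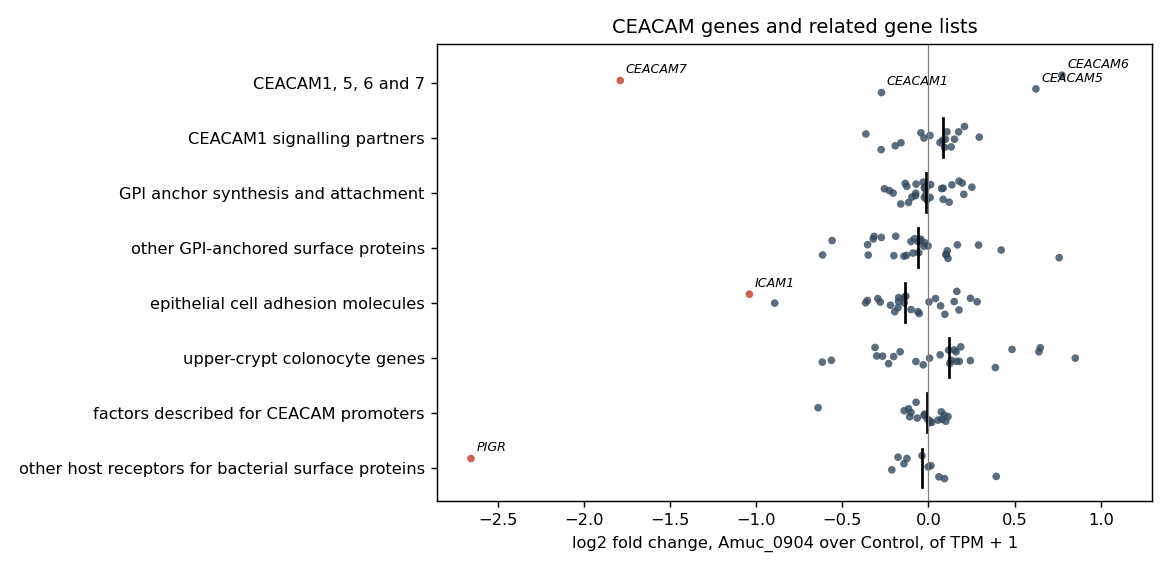
Log2 fold change of TPM + 1, Amuc_0904 over Control, of each tested gene in 8 groups of genes (points, red where the limma adjusted p was under 0.05), with the median of each list as a bar and no bar for the 4 CEACAM genes. CEACAM7 at −1.79 lies on the far left of its row, ICAM1 at −1.04 and PIGR at −2.66 are the red points of the lists, and CEACAM6 and CEACAM5 lie at 0.77 and 0.62.

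Other host proteins that bacteria are known to hold on to were compared with the CEACAM receptors. Of 14 genes 11 were tested, 4 with higher and 7 with lower means and a median log2 fold change of −0.037. By limma 0 rose and 1 fell (1 higher and 2 lower at an unadjusted limma p below 0.05, beside 9.95% higher and 5.87% lower of all tested genes). The 1 was PIGR, the polymeric immunoglobulin receptor to which a pneumococcal protein binds, with 4.01, 1.83 and 1.59 TPM in Amuc_0904 libraries, against 18.93, 20.58 and 20.35 TPM in Control libraries (log2 fold change −2.66, limma adjusted p = 0.00741). CD55, which shares the Afa/Dr adhesins with CEACAM5, and CD46, a receptor of neisserial pili, had log2 fold changes of −0.14 and −0.21 (limma adjusted p = 0.303 and 0.371). C1QBP, a surface partner of a listerial invasion protein, had a log2 fold change of 0.39 (limma adjusted p = 0.238). Without Control replicate 1, 2 or 3, 0 genes of this list were past the adjusted p (up to 0.0787 for PIGR). Without Amuc_0904 replicate 1, 2 were past it as higher and 4 as lower. Of all 14077 genes tested in that last fit, 1339 were past it as higher and 1301 as lower.

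Transcription factors that have been described at CEACAM promoters had levels near those of the controls. Of 21 genes 19 were tested, 9 with higher and 10 with lower means and a median log2 fold change of −0.0061, and by limma 0 rose and 0 fell (0 higher and 0 lower at an unadjusted limma p below 0.05, beside 9.95% higher and 5.87% lower of all tested genes). USF1 and USF2, which bind the CACGTG letters and were named after their values were seen, had 47.5 ± 0.624 and 109.7 ± 3.35 TPM in Amuc_0904 cells. They had 48.3 ± 0.543 and 111.7 ± 1.21 TPM in Control cells (SD, n = 3 each; limma adjusted p = 0.845 and 0.814). MYC, also named above for these letters, was not in the list, and its level is not reported here. SMAD2, SP1 and SMAD3 had log2 fold changes of 0.09, −0.14 and −0.12 (limma adjusted p = 0.409, 0.419 and 0.443). IRF1, an interferon-induced factor, had −0.64 (limma adjusted p = 0.438), a value set by Control replicate 2 at 103.56 TPM, with 31.39 to 36.72 TPM in Amuc_0904 libraries and 36.46 and 37.59 TPM in the other controls. Without Amuc_0904 replicate 1, SP1 and SMAD3 were past the adjusted p as lower. Of all 14077 genes tested in that fit, 1339 were past it as higher and 1301 as lower.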

How the data were processed

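RNA was extracted with TRIzol from HT-29 cells, 3 Amuc_0904 and 3 Control libraries, and sequenced on Illumina. The authors trimmed the reads, aligned them with HISAT2 and assembled them with StringTie, and the submitters' notes also name RSEM and edgeR, without versions, and the mouse build GRCm38.p6. The deposited values are TPM for 63241 human Ensembl genes, so depth and counting error are unknown, and 25 further lines with only annotation text were left out.

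A gene needed 1 TPM or more in 3 or more libraries to be tested, which 14333 met. The log2(TPM + 1) values were fitted in R 4.3.3 by limma 3.58.1 (trend, robust empirical Bayes, condition only), with Benjamini-Hochberg adjustment over these genes. The code was tested on simulated data. The members and the 9 gene lists, written from general knowledge, were chosen with earlier results of these data known. The lists cover other CEACAM genes, pregnancy-specific glycoproteins, CEACAM1 partners, GPI anchor synthesis, other GPI-anchored proteins, adhesion molecules, upper-crypt genes, promoter factors and other bacterial receptors. Named genes are the members, the other CEACAM genes with at least 0.1 TPM in a library, in each further list the genes past the adjusted p, filled up to 4 by the smallest p, and the 3 nearest genes by r for each member. A few others are marked as singled out later. A gene that the rule names among the CEACAM1 partners is not reported here. Alternatives changed the pseudocount to 0.1, the filter, library weights, scaling, a replicate block and the libraries used. Positions are from GENCODE on GRCh38, and RefSeq promoter windows, aligned with Biopython 1.88, on GRCh38.p14.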

Additional observations from a re-analysis of the deposited data

How the results depend on the processing

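Over the alternatives run, CEACAM5 and CEACAM6 stayed higher and CEACAM1 and CEACAM7 lower in Amuc_0904. The log2 fold change lay between −0.53 and −0.12 for CEACAM1, 0.43 and 0.89 for CEACAM5 (which the filter of 5 TPM removed), 0.63 and 1.02 for CEACAM6, and −2.23 and −1.68 for CEACAM7, where −2.23 came from the pseudocount of 0.1.

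The limma fit had 34 genes past the adjusted p (10 higher, 24 lower). Fitted anew, the alternatives had totals of 18 with no filter (3 higher, 15 lower), 2371 with array weights (1315 higher, 1056 lower) and, for higher genes only, 6 with median-of-ratios scaling. With the replicate block the total was 21 (5 higher, 16 lower). Deviations of same-numbered libraries from their group means had correlations of 0.046, −0.039 and −0.0047. With group means of only 3 libraries, these values cannot show whether the numbers pair the samples. Leaving out 1 library at a time gave 9 to 2640 genes (1 to 1339 higher, 6 to 1301 lower), with the highest counts, here and in the lists, without Amuc_0904 replicate 1. In the lists this gave 0 to 8 CEACAM1 partners, 0 to 3 genes of GPI anchor synthesis, 0 to 10 other GPI-anchored proteins, 0 to 9 adhesion genes, 0 to 12 upper-crypt genes, 0 to 2 promoter factors and 0 to 6 bacterial receptors. Array weights gave 6, 3, 10, 8, 12, 0 and 5 in the same order. Adhesion genes came to 0 with no filter and with the replicate block, and upper-crypt genes came to 1 with that block. The cause was not tested. With 3 libraries a group and unknown depth, the counting error of low genes such as CEACAM5 cannot be given.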
